A study of Mus musculus with 2 samples.

Results

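Fos, Fosb, Jun, Junb, Jund, Egr1, Atf3, Btg2, Zfp36 and Ier2 are 10 genes that cells transcribe within minutes of a stimulus, and they are described here in mouse lung cells of 2 ages. They were taken by symbol from the 32285 genes of the count matrix, all 10 were found, and the match used the symbol alone, though the 10 were picked with earlier results of these data known. The cells came from zbtb46-cre x rosa26-yfp mice of 7 days (neonatal) and 8 weeks (adult), in which Cre made from the Zbtb46 locus permanently switches on YFP in cells that express or once expressed Zbtb46, a zinc finger factor typical of classical dendritic cells (DC). Live CD45.2 and YFP positive lung cells were sorted from 2 pools per age, each pool made from at least 5 mice, and measured by droplet single-cell RNA sequencing. Both ages carried the same alleles, and the labels name no treatment. The 2 pools of an age were marked with hashtags, combined and loaded together, so age and loading run go together. The p values below rest on 2 pools per age only. The fits share variance estimates between genes, so a very small p value does not measure the spread of these pools alone. The model of all classes also takes its spread from classes within a pool.

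Fos and Fosb pair with Jun, Junb or Jund through leucine zippers to form AP-1, a dimeric transcription factor that binds DNA in response to growth factors, cytokines and stress. Egr1 is a zinc finger factor and Atf3 a further zipper protein of the same early wave, while Btg2 recruits deadenylases to mRNA, Zfp36 (tristetraprolin) binds AU-rich elements and speeds the decay of cytokine mRNA, and Ier2 is a nuclear protein of the early response. MAP kinase signalling switches these genes on without new protein synthesis, and the warm digestion of tissue into single cells is itself known to switch them on.

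The promoters of Junb and Btg2, which were higher in adult in all 9 classes, and of Fos, the namesake of its family, are shown as the places where stimulus-driven transcription starts. Each line gives 170 bases upstream of the annotated start of transcription, from RefSeq on GRCm38.p6, read on the gene's own strand. Capitals mark the core of a cAMP response element, TGACG, its full palindrome TGACGTCA, or the TATA box TATAAA.
Fos, chr12:85473720-85473889, plus strand: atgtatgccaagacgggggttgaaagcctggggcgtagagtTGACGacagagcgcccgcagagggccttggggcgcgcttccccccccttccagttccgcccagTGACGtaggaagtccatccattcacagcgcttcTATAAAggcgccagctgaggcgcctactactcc
Junb, chr8:84978749-84978918, minus strand: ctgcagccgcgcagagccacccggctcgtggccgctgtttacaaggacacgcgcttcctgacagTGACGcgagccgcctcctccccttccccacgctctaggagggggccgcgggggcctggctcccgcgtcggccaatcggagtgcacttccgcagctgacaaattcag
Btg2, chr1:134079156-134079325, minus strand: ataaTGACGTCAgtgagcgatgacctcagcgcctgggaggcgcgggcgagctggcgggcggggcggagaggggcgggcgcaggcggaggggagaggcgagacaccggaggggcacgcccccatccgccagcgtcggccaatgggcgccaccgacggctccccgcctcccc

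Promoters of 8 of the 10 genes, all but Egr1 and Ier2, were matched in the RefSeq table. Searched on both strands over 250 bases before the start, TGACG was found in 5 of these 8 (Fos, Fosb, Junb, Atf3 and Btg2) and in 17.8% of all 32851 promoters. The full TGACGTCA, which holds TGACG on both strands, was found in Btg2 alone and in 1.55% of all promoters. Of these 8, Zfp36 alone had a CArG box, the site of serum response factor, within the 250 bases, as had 1.47% of all promoters. Bases further upstream, and the promoters of Egr1 and Ier2, were not searched. GCGNGGGCG, an Egr-type site, was found in Fosb, Btg2 and Zfp36 and in 4.7% of all promoters, TATAAA in Fos alone and in 7.59%, and TGANTCA, the AP-1 site, in 0 of 8 and in 6.75%. A match is a description of these letters only.

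The matrix held 14710 barcodes with 8172362 to 20346024 gene UMIs per pool, and 12740 cells were kept. Over all kept cells depth was higher in neonatal pools, at a median of 3559.5 to 3721.5 UMIs per cell, than in adult pools, at 3052 to 3165. Within most classes, described below, it was higher in adult pools. The 30 clusters gave 9 cell classes with at least 20 cells in every pool: cDC1, cDC2, mature DC, classical and nonclassical monocytes, neutrophils, mast cells or basophils, NK cells and T cells. The labels give the cell type as dendritic cells, but cells with neutrophil, monocyte and lymphocyte markers were also present, and neutrophils made up 9.04% and 12.7% of neonatal and 28.6% and 26.7% of adult cells. The cDC2 cluster was led by C1q genes as well as by cDC2 markers. In cDC1, both monocyte classes, neutrophils, NK cells and mature DC, different clusters held most of the class at the 2 ages, while T cells, cDC2 and mast cells each came from 1 cluster. With finer clustering at resolution 2, cDC2 also split by age. A cDC2 cluster there held 263 and 156 neonatal and 4 and 2 adult cells, and another 27 and 17 against 85 and 71. A cluster of 34 and 39 neonatal and 24 and 25 adult cells was then named C1q macrophages. Sex went with age: Xist reached 708 and 603 CPM in neonates and 0.235 and 0.129 CPM in adults, and Y-linked genes at 1.41 and 25.2 against 164 and 177 CPM. Between ages 14 barcodes were shared, and 0 between pools of 1 age.

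Levels are given as CPM, the UMIs of a gene per 1000000 UMIs summed over the cells of 1 class in 1 pool. Across these classes, transcripts of the 10 genes made up a smaller part of the RNA in neonatal than in adult cells in most combinations of gene and class. In 71 of the 90 combinations of gene and class both adult pools lay above both neonatal pools, in 3 both neonatal pools lay above, and in 16 the pools overlapped. How often the pools separated in this way over all genes was not counted. Enough counts for a test were present in 86 combinations, of which 83 had a log2 fold change (neonatal over adult) below 0. Of all genes tested, 4764 of 9620 in cDC1 and 2821 of 5778 in neutrophils lay below 0. A total of 67 were called higher in adult and 1 higher in neonatal (edgeR, adjusted p below 0.05). By class, 4 to 10 of the genes were called higher in adult, where 3.49% (T cells) to 15.8% (neutrophils) of all genes tested were. Their median log2 fold change lay between -1.01 in cDC2 and -0.64 in cDC1. In such sums over cells, fewer expressing cells and less RNA per cell cannot be told apart.

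**Figure D1:**
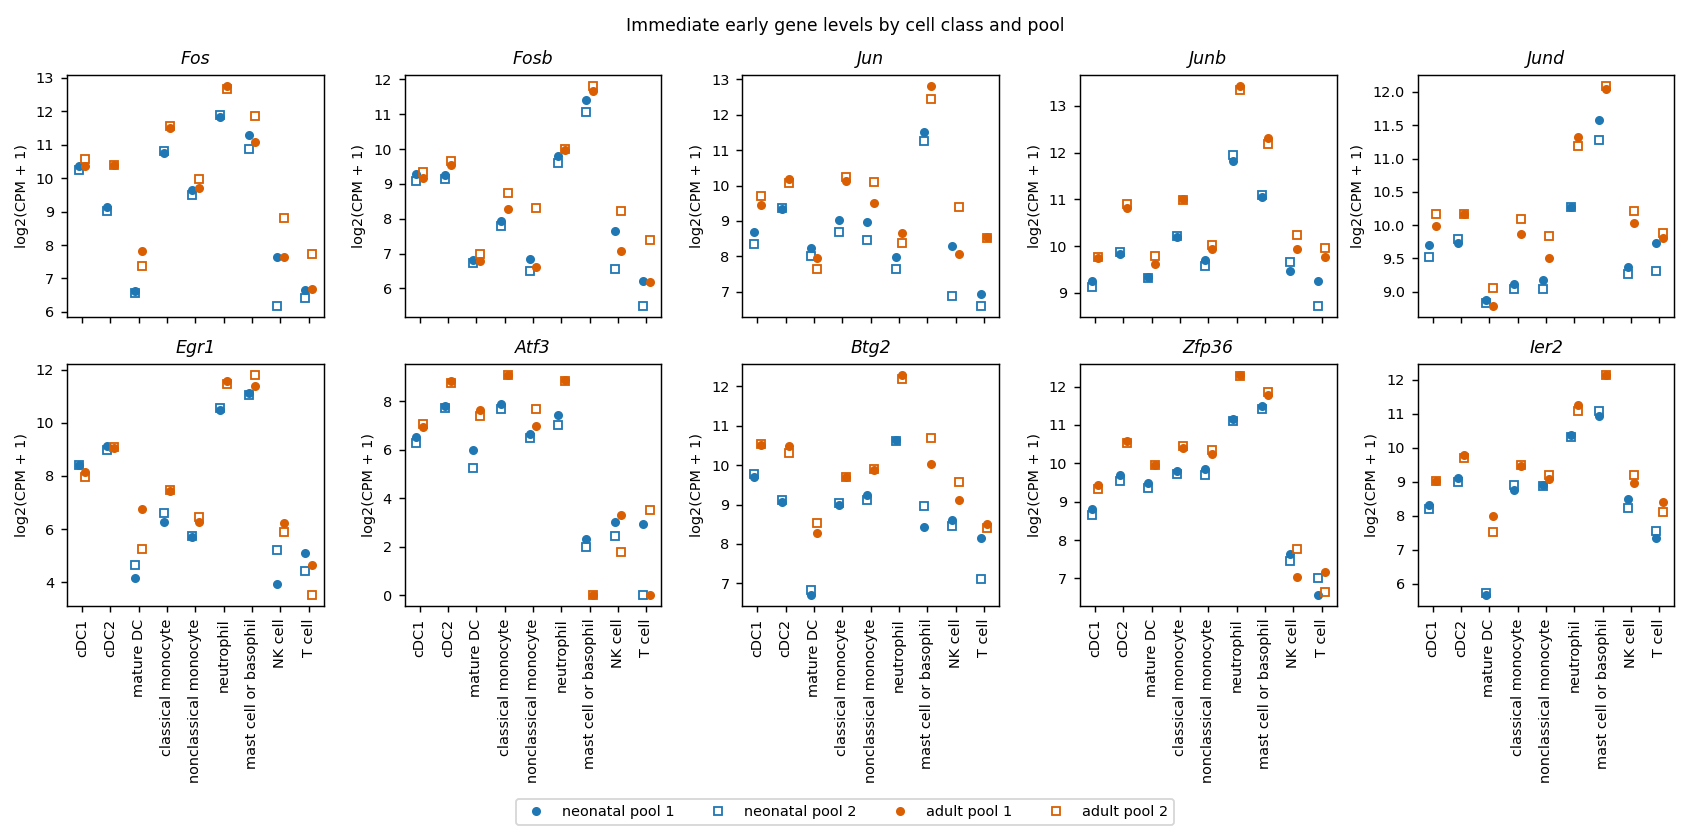
Levels of the 10 genes as log2(CPM + 1) in 9 cell classes, 1 panel per gene, with 1 point per pool (blue neonatal, orange adult, filled circle pool 1, open square pool 2). In 71 of 90 combinations both orange points lie above both blue points, and the panels of Btg2, Junb and Ier2 show this in all 9 classes. No such count was made over all genes.

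Fos, the best known partner of Jun in AP-1 (chr12:85473890-85477273, plus strand, 4 exons), was highest in neutrophils, at 3615 and 3795 CPM in neonates (pools 1 and 2) and 6994 and 6486 CPM in adults (pools 1 and 2). Mast cells or basophils and classical monocytes came next, and T cells, NK cells and mature DC were lowest at both ages. In cDC2, Fos stood at 562 and 514 CPM in neonates (pools 1 and 2) and 1357 and 1337 CPM in adults (pools 1 and 2), a 2.77-fold higher level in adult (log2 -1.47 ± 0.07, edgeR adjusted p = 6.25e-19) with no overlap of the pools. Classical monocytes showed 1736 and 1799 CPM against 2888 and 3038 CPM (log2 -0.94 ± 0.04, edgeR adjusted p = 2.35e-30), and neutrophils were 1.76-fold higher in adult (log2 -0.82 ± 0.05, edgeR adjusted p = 1.61e-16). In cDC1 the pools overlapped, at 1326 and 1204 CPM in neonates (pools 1 and 2) and 1307 and 1508 CPM in adults (pools 1 and 2). The small difference there (log2 -0.22 ± 0.05, edgeR adjusted p = 0.00259) lost its call without neonatal pool 2 (-0.15, edgeR adjusted p = 0.155) and without adult pool 2 (-0.12, edgeR adjusted p = 0.072). In the 1 cDC1 cluster that both ages shared, with at least 20 cells in every pool, the difference was larger (-1.02, edgeR adjusted p = 5.81e-05). This cluster held 740 and 667 neonatal and 41 and 30 adult cells, the latter 17.3% of adult cDC1. Fos was called in 6 of 9 classes, and its call in nonclassical monocytes (log2 -0.38 ± 0.07, edgeR adjusted p = 5.18e-06) was lost without adult pool 2 (-0.23, edgeR adjusted p = 0.0664). In NK cells adult pool 2 held 447 CPM and adult pool 1 197 CPM, and no call was made (log2 -1.42 ± 1.00, edgeR adjusted p = 0.57).

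Fosb, the nearest relative of Fos (chr7:19302696-19310051, minus strand, 4 exons), was called in the fewest classes, 4 of 9. Mast cells or basophils held the most at both ages, with 2727 and 2134 CPM against 3258 and 3629 CPM in neonatal and adult pools. In cDC2 the pools stood at 606 and 565 CPM against 749 and 815 CPM (log2 -0.56 ± 0.07, edgeR adjusted p = 5.84e-07) and in classical monocytes at 244 and 219 CPM against 313 and 426 CPM (log2 -0.86 ± 0.11, edgeR adjusted p = 1.66e-05), both without overlap. The pools of cDC1, mature DC, NK cells, T cells and nonclassical monocytes overlapped. The neutrophil call (log2 -0.23 ± 0.08, edgeR adjusted p = 0.0161) was lost without neonatal pool 2 (-0.14, edgeR adjusted p = 0.301). It turned round when the immature neonatal neutrophils, led by Camp and Ngp, were left out (0.28, edgeR adjusted p = 0.00233), and the mast cell call was lost without neonatal pool 2 (-0.38, edgeR adjusted p = 0.217).

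Jun (chr4:95049034-95052222, minus strand, 1 exon) was highest in mast cells or basophils, at 2892 and 2442 CPM in neonates (pools 1 and 2) and 7224 and 5545 CPM in adults (pools 1 and 2), a 2.53-fold higher level in adult (log2 -1.34 ± 0.12, edgeR adjusted p = 6.47e-08). Both adult pools lay above both neonatal pools in 7 of 9 classes. In T cells Jun was 3.92-fold higher in adult, with 121 and 96.6 CPM against 377 and 369 CPM (log2 -1.97 ± 0.24, edgeR adjusted p = 5.2e-05), and in classical monocytes 2.86-fold higher (log2 -1.52 ± 0.13, edgeR adjusted p = 0.0011). cDC1 showed 411 and 326 CPM against 697 and 828 CPM with no overlap, but missed the call (log2 -1.11 ± 0.19, edgeR adjusted p = 0.0721). It passed under several alternatives, among them each fit without 1 pool, such as without neonatal pool 1 (-1.27). A fit without 1 pool sees the spread between pools in 1 age only, so passing there adds no support. Mature DC were the exception, with 299 and 259 CPM against 248 and 199 CPM, the neonatal pools above the adult pools without a call (log2 0.20 ± 0.13, edgeR adjusted p = 0.264). Neonatal Jun stood at 349 and 309 CPM in a cluster that held 77% of neonatal and 7.43% of adult mature DC. In the clusters that both ages shared, Jun leaned to adult (-0.55, edgeR adjusted p = 0.073).

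Junb, which often restrains Jun (chr8:84974484-84978718, minus strand, 1 exon), was higher in adult in 9 of 9 classes, and its pools overlapped in 0 of them. Neutrophils held the most, with 3606 and 3931 CPM in neonates (pools 1 and 2) and 11074 and 10321 CPM in adults (pools 1 and 2), a 2.75-fold difference (log2 -1.46 ± 0.05, edgeR adjusted p = 1.9e-25). Without the immature cluster the neutrophil difference was smaller and still called (-0.98, edgeR adjusted p = 9.83e-78). In cDC2, Junb was at 916 and 940.2 CPM against 1805 and 1924 CPM (log2 -1.15 ± 0.06, edgeR adjusted p = 9.27e-18), in cDC1 at 615 and 562 CPM against 856 and 866 CPM (log2 -0.62 ± 0.05, edgeR adjusted p = 6.42e-14) and in mature DC at 652 and 635 CPM against 789 and 879.8 CPM (log2 -0.49 ± 0.09, edgeR adjusted p = 0.000195). Nonclassical monocytes had a difference of -0.46 ± 0.06 (edgeR adjusted p = 2e-10). In NK cells the call (log2 -0.54 ± 0.12, edgeR adjusted p = 0.00229) was lost without adult pool 2 (-0.39, edgeR adjusted p = 0.0865).

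Jund, the Jun gene that resting cells already express (chr8:70698949-70700616, plus strand, 1 exon), was measured in every class. It ranged in neonatal pools from 456 CPM in mature DC to 3066 CPM in mast cells or basophils. Adult pools were higher in 7 of 9 classes by the test. Classical monocytes showed the largest difference, with 554 and 527 CPM against 933 and 1089.5 CPM (log2 -1.10 ± 0.06, edgeR adjusted p = 2.07e-22), and cDC1 and cDC2 stood close together (log2 -0.53 ± 0.05, edgeR adjusted p = 4.37e-09 and log2 -0.55 ± 0.06, edgeR adjusted p = 2.32e-08). Thinning to 1000 UMIs ended the cDC2 call (-0.46, edgeR adjusted p = 0.0718). Mature DC overlapped, with 471 and 456 CPM against 441 and 532 CPM (log2 -0.19 ± 0.11, edgeR adjusted p = 0.2), but within the clusters that both ages shared Jund was higher in adult (-0.54, edgeR adjusted p = 0.0193).

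Egr1, the zinc finger factor, was the one gene with a call towards the neonate. In cDC1 it stood at 341 and 343 CPM in neonates (pools 1 and 2) and 283 and 249 CPM in adults (pools 1 and 2), with no overlap (log2 0.28 ± 0.06, edgeR adjusted p = 0.000879). After every cell was thinned to 1000 UMIs, the minimum of all kept cells, 26.1% and 26.5% of neonatal and 16.1% and 20.9% of adult cDC1 had an Egr1 UMI (64.7% and 64.7% against 52.8% and 55.2% unthinned). The sums of thinned cells no longer gave a call (0.40, edgeR adjusted p = 0.121). For the shares, the exact two-sided permutation p over the 4 pools was 0.33, the smallest that 2 pools against 2 can give. T cells, with 2 to 5 Egr1 UMIs a pool, showed 5.26% and 1.82% against 2.5% and 2.08% after thinning, at median depths of 3858 to 4257 UMIs where cDC1 had 6650 to 8249.

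The direction in cDC1 changed with the cells counted as cDC1. The cluster led by Xcr1 and Clec9a held 97.0% of neonatal and 17.3% of adult cDC1, and within it Egr1 was lower in neonates, at 335 and 333 CPM against 508 and 445 CPM (-0.59, edgeR adjusted p = 0.000605). A second cluster, led by Sept3 and Tlr3, held 78.3% of adult and 0.758% of neonatal cDC1 and stood at 228 and 201 CPM. A cluster led by Plet1, Cldn1, Ccl17 and Epcam stayed unnamed, and it held 3 and 2 neonatal and 64 and 67 adult cells. Egr1 was high in it, at 709 and 1043 CPM in the adult pools. With clusters drawn at resolution 2 the sign turned and no call was made (-0.31, edgeR adjusted p = 0.0642), as it did when the 10 genes and their companion lists took part in clustering (-0.32, edgeR adjusted p = 0.0518).

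Elsewhere Egr1 was higher in adult or not called. Neutrophils stood at 1447 and 1522 CPM against 3068 and 2806 CPM (log2 -0.94 ± 0.06, edgeR adjusted p = 2.22e-16), and classical monocytes at 75.4 and 95.7 CPM against 172 and 179 CPM (log2 -1.23 ± 0.12, edgeR adjusted p = 1.55e-13). cDC2 overlapped, with 563 and 502 CPM against 533 and 542 CPM (log2 -0.16 ± 0.08, edgeR adjusted p = 0.231). In mature DC the difference (log2 -1.93 ± 0.43, edgeR adjusted p = 0.0107) rested on few UMIs, 37 and 54 against 69 and 24, and was smaller without adult pool 1 (-0.98, edgeR adjusted p = 0.033). It lost its call in the clusters that both ages shared (-0.89, edgeR adjusted p = 0.245). In mast cells or basophils it was -0.59 ± 0.11 with all pools and smaller without adult pool 2 (-0.39, still called), and it lost its call when thinned to 1000 UMIs (-0.34, edgeR adjusted p = 0.208).

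Atf3, a stress-induced zipper protein that dampens inflammatory genes in myeloid cells (chr1:191170296-191218039, minus strand, 4 exons), had enough UMIs for a test in 6 classes: the 3 DC classes, both monocyte classes and neutrophils. In mast cells or basophils 1 and 1 UMIs were counted in neonatal and 0 and 0 in adult pools, and NK and T cells held 0 to 7 UMIs a pool. All 6 classes tested were called higher in adult, of which cDC1 (log2 -0.65 ± 0.10, edgeR adjusted p = 1.11e-06) lost its call when thinned to 1000 UMIs (-0.40, edgeR adjusted p = 0.453). Mature DC had the largest difference, with 62.9 and 36.7 CPM against 199.9 and 170.1 CPM (log2 -2.01 ± 0.20, edgeR adjusted p = 1.47e-06), a 4.03-fold change. Neutrophils stood at 171 and 131 CPM against 469.9 and 462 CPM (log2 -1.60 ± 0.11, edgeR adjusted p = 1.78e-15), classical monocytes at 236 and 205 CPM against 548 and 541 CPM (log2 -1.50 ± 0.08, edgeR adjusted p = 9.73e-27) and cDC2 at 221 and 211 CPM against 462 and 432 CPM (log2 -1.20 ± 0.10, edgeR adjusted p = 1.81e-11). Thinned to 1000 UMIs, 15.1% and 13.8% of neonatal and 35.1% and 34.3% of adult cDC2 had an Atf3 UMI (52.2% and 52.0% against 73.7% and 71.7% unthinned), while 0% of thinned mast cells or basophils, at median depths of 2830 to 3283 UMIs, had one. In nonclassical monocytes the difference (log2 -0.94 ± 0.16, edgeR adjusted p = 0.00045) shrank without adult pool 2 (-0.52, edgeR adjusted p = 0.0353).

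Btg2, the antiproliferative deadenylase adaptor (chr1:134075170-134079120, minus strand, 2 exons), was called higher in adult in 9 of 9 classes. In cDC1 it stood at 830.1 and 878 CPM in neonates (pools 1 and 2) and 1467 and 1479.9 CPM in adults (pools 1 and 2) (log2 -0.86 ± 0.04, edgeR adjusted p = 2.61e-20) and in cDC2 at 529.7 and 553 CPM against 1439 and 1273 CPM (log2 -1.47 ± 0.07, edgeR adjusted p = 1.13e-18). Mature DC had 103 and 113 CPM against 312 and 368 CPM, a 3.41-fold difference (log2 -1.77 ± 0.13, edgeR adjusted p = 5.69e-11), and neutrophils had 1586 and 1564 CPM against 5006 and 4632 CPM, a 2.97-fold one (log2 -1.57 ± 0.06, edgeR adjusted p = 3.71e-25). The pools overlapped in 0 classes. The T cell call (log2 -1.0 ± 0.27, edgeR adjusted p = 0.0389) was lost without neonatal pool 2 (-0.48, edgeR adjusted p = 0.526) and without adult pool 1 (-0.91, edgeR adjusted p = 0.0824).

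Zfp36, the mRNA decay factor (chr7:28376784-28380253, minus strand, 2 exons), was called higher in adult in 7 of 9 classes, the exceptions being both lymphocyte classes. In NK cells the pools overlapped at 199 and 175 CPM against 131 and 218 CPM (log2 0.05 ± 0.26, edgeR adjusted p = 0.936), and in T cells at 93.9 and 129 CPM against 144 and 98.8 CPM (log2 -0.23 ± 0.33, edgeR adjusted p = 0.8). Among DC the difference was largest in cDC2, with 826 and 743 CPM against 1532 and 1471 CPM (log2 -1.08 ± 0.06, edgeR adjusted p = 9.27e-16). In cDC1 it stood at 444 and 403 CPM against 693 and 646 CPM (log2 -0.74 ± 0.05, edgeR adjusted p = 4.48e-15). Neutrophils stood at 2265 and 2207 CPM against 5063 and 4952 CPM (log2 -1.12 ± 0.06, edgeR adjusted p = 1.38e-20). The mast cell call (log2 -0.43 ± 0.10, edgeR adjusted p = 0.0033) was lost without neonatal pool 1 (-0.45, edgeR adjusted p = 0.0828) and without neonatal pool 2 (-0.37, edgeR adjusted p = 0.222).

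Ier2 (chr8:84661331-84662852, minus strand, 1 exon) was called higher in adult in 9 of 9 classes, and in mature DC it showed the largest difference of all 86 tests. Mature DC held 49.9 and 52.2 CPM in neonates (pools 1 and 2) and 254 and 181 CPM in adults (pools 1 and 2), a 4.62-fold difference (log2 -2.21 ± 0.16, edgeR adjusted p = 5.69e-11). In the clusters of mature DC that both ages shared it was -1.58, edgeR adjusted p = 5.71e-05. cDC1 stood at 316 and 291 CPM against 514 and 523 CPM (log2 -0.84 ± 0.06, edgeR adjusted p = 1.82e-16) and cDC2 at 547 and 506 CPM against 879.7 and 822 CPM (log2 -0.84 ± 0.07, edgeR adjusted p = 8.36e-11), the latter without a call when thinned (-0.51, edgeR adjusted p = 0.0581). The smallest difference was that of nonclassical monocytes, with 478 and 470.1 CPM against 541 and 586 CPM (log2 -0.37 ± 0.07, edgeR adjusted p = 1.46e-05). In T cells the call (log2 -0.97 ± 0.23, edgeR adjusted p = 0.0192) was lost without adult pool 1 (-0.81, edgeR adjusted p = 0.186).

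Counted by class, the adult calls ran from 4 to 10 of the 10 genes, beside the share of all genes tested that was called higher in adult in the same class. In cDC1, 7 of 10 were called higher in adult (11.2% of all genes) and 1 higher in neonatal (8.22% of all genes). cDC2 had 9 of 10 (8.02% of all genes), mature DC 7 of 10 (14.6%), classical monocytes 10 of 10 (10.8%) and nonclassical monocytes 8 of 10 (9.6%). In neutrophils 10 of 10 were called (15.8% of all genes), of which Fosb turned round without the immature cluster. Mast cells or basophils had 8 of 9 tested (4.78% of all genes), and T cells 4 of 8 (3.49%). NK cells had 4 of 9 (5.68%), and 7 without adult pool 1, the adult pool with less Fos, Fosb and Jun in that class. Mitochondrial shares, a sign of RNA quality, were lower in both adult pools in 6 of 9 classes, higher in nonclassical monocytes and overlapped in T cells and mature DC. In adult neutrophils the medians were 0.183% and 0.162% against 0.381% and 0.386% in neonatal ones, and in adult cDC1 2.6% and 2.56% against 2.87% and 2.95%. Their part in the result was not tested.

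The size of the difference moved with the clusters counted in a class. Without the immature neutrophils 9 of 10 genes were still called higher in adult, at -1.16 for Btg2, -1.01 for Atf3, -0.98 for Junb, -0.70 for Zfp36, -0.54 for Jund, -0.54 for Egr1, -0.52 for Ier2, -0.41 for Fos and -0.38 for Jun, each smaller than with all neutrophils. In the cDC1 clusters that both ages shared, the difference was larger for Atf3 (-1.89), Zfp36 (-1.11), Junb (-0.97) and Jund (-0.88) and smaller for Btg2 (-0.74) and Ier2 (-0.70), all of them called. In those of mature DC, Fos stood at -1.82 and Junb at -0.83, both called. Thinning to 1000 UMIs, which leaves fewer counts, also ended the calls of Fosb and Zfp36 in mast cells or basophils, of Junb in NK cells and of Btg2 and Ier2 in T cells.

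Given equal weight, the 9 classes together showed the shift for 9 of 10 genes (limma, 4.66% of all 10642 genes higher in adult). It was largest for Btg2 (log2 -1.21 ± 0.04, limma adjusted p = 2.45e-07), followed by Jun (log2 -1.07 ± 0.12, limma adjusted p = 0.00203), Ier2 (log2 -0.97 ± 0.04, limma adjusted p = 6.64e-07) and Junb (log2 -0.89 ± 0.03, limma adjusted p = 2.45e-07). Fos (log2 -0.84 ± 0.13, limma adjusted p = 0.0142) and Atf3 (log2 -0.69 ± 0.18, limma adjusted p = 0.0346) were nearer the threshold. Leaving out neonatal pool 2 ended both calls (Fos -0.70, limma adjusted p = 0.197, Atf3 -0.42, limma adjusted p = 0.14), and leaving out adult pool 2 ended that of Atf3 (-0.55, limma adjusted p = 0.123). Atf3 also lost it with no count filter (-0.69, limma adjusted p = 0.158), with doublets kept (-0.49, limma adjusted p = 0.0798) and at no more than 5% mitochondrial UMIs (-0.63, limma adjusted p = 0.0513), and this mean includes the 3 classes with 0 to 7 Atf3 UMIs a pool. Fosb was not called (log2 -0.57 ± 0.22, limma adjusted p = 0.175) but was without adult pool 1 (-0.86, limma adjusted p = 0.0194). The median of the 10 was -0.76 and that of all genes tested 0.07. Summed over all kept cells, as a bulk sample would be, 10 of 10 were called higher in adult (18.4% of all genes), with Junb at -1.51 ± 0.04 and a median of -1.09, a comparison in which the larger adult share of neutrophils also enters. With neutrophils left out Fosb was no longer called (-0.42, edgeR adjusted p = 0.0588).

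**Figure D2:**
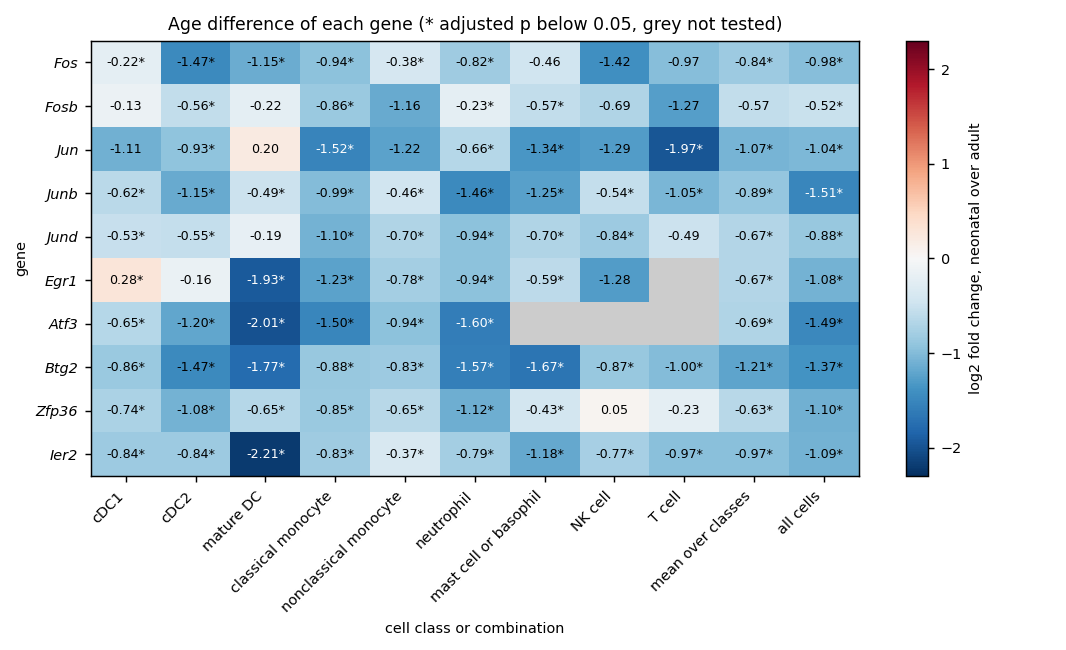
Heat map of the log2 fold change, neonatal over adult, of each gene, from top to bottom, in 9 cell classes, in their equally weighted mean and in all cells, from left to right. Blue is higher in adult and red higher in neonatal, a star marks an adjusted p below 0.05 and grey was not tested, and 83 of the 86 class cells tested lie below 0.

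Whether the size of the shift differed between classes was tested directly, in 1 edgeR model of all class and pool sums. The age effect differed among the 9 classes for 7 of 10 genes (30.7% of all genes). The interaction was strongest for Ier2 (edgeR adjusted p = 2.42e-19) and Junb (1.33e-18). Fos, Fosb and Jun missed the threshold (0.0533, 0.368 and 0.0736). Among the DC classes alone, Fos, Fosb and Jun were called (edgeR adjusted p = 9.12e-19, 0.00443 and 4.09e-10) and Egr1 was not (0.0787).

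Each class was then set against the mean of the other 8, where a value below 0 means a larger adult excess. Mature DC stood apart for 6 of 10 genes (12.6% of all genes), with a larger adult excess of Ier2 (-1.38 ± 0.13, edgeR adjusted p = 3.09e-17), Atf3 (-1.80 ± 0.60, edgeR adjusted p = 0.0339) and Egr1 (-1.40 ± 0.38, edgeR adjusted p = 0.0199) and a smaller one of Jun (1.45 ± 0.34, edgeR adjusted p = 0.00783), Jund (0.54 ± 0.10, edgeR adjusted p = 2.01e-06) and Junb (0.45 ± 0.09, edgeR adjusted p = 3.35e-05). With cDC1 and mature DC drawn from the clusters that both ages shared, Ier2 kept its call in mature DC (-0.78, edgeR adjusted p = 0.00194) and the other 5 lost theirs, Jun at 0.76, edgeR adjusted p = 0.755, Egr1 at -0.25, edgeR adjusted p = 1, Junb at 0.16, edgeR adjusted p = 0.753 and Jund at 0.24, edgeR adjusted p = 0.512. Atf3 had about the same size there without a call (-1.62, edgeR adjusted p = 0.205). Leaving out neonatal pool 1 or 2 also ended the calls of Jun (1.58, edgeR adjusted p = 0.139 and 1.37, edgeR adjusted p = 0.2) and Atf3 (-1.48, edgeR adjusted p = 1 and -1.71, edgeR adjusted p = 0.0802). Leaving out adult pool 1 ended those of Egr1 (-0.53, edgeR adjusted p = 0.564) and Atf3 (-1.67, edgeR adjusted p = 0.138).

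In cDC1, 2 of 10 genes stood apart (3.03% of all genes), Egr1 (1.10 ± 0.25, edgeR adjusted p = 0.02) and Junb (0.31 ± 0.08, edgeR adjusted p = 0.0154), and neither did with the shared clusters (0.10, edgeR adjusted p = 1 and -0.01, edgeR adjusted p = 1). cDC2 had a larger adult excess of Zfp36 (-0.51 ± 0.09, edgeR adjusted p = 4.08e-05) and of Junb (-0.29 ± 0.08, edgeR adjusted p = 0.0403), 2 of 10 genes against 1.59% of all genes. Zfp36 was called under 9 of 9 alternatives and Junb under 4 of 9. Fits without 1 pool were among these, and passing there adds no support. Shared clusters and leaving out immature neutrophils changed no cDC2 cell. Resolution 2, where cDC2 split by age, was not among the alternatives. Junb lost its call in cDC1 without neonatal pool 1 (0.26, edgeR adjusted p = 0.294) and without adult pool 2 (0.28, edgeR adjusted p = 0.154). In cDC2 it lost it without neonatal pool 1 (-0.25, edgeR adjusted p = 0.507), neonatal pool 2 (-0.35, edgeR adjusted p = 0.0812) and adult pool 2 (-0.26, edgeR adjusted p = 0.259).

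Nonclassical monocytes had a smaller adult excess of Ier2 (0.68 ± 0.10, edgeR adjusted p = 8.08e-09) and Junb (0.48 ± 0.08, edgeR adjusted p = 1.14e-05), 2 of 10 genes against 4.5% of all genes, and classical monocytes a larger one of Jund (-0.48 ± 0.09, edgeR adjusted p = 2.16e-05), 1 of 10 against 3.08%. These 3 monocyte differences were called under 8 of 8 alternatives each, fits without 1 pool among them, where passing adds no support. The alternatives with shared clusters and without immature neutrophils changed no monocyte cell. No monocyte cluster held at least 20 cells in every pool, so monocytes of shared clusters could not be compared. A single cluster held 93.6% of neonatal and 0.511% of adult nonclassical monocytes. Neutrophils had a larger adult excess of Junb (-0.64 ± 0.08, edgeR adjusted p = 1.27e-10), Zfp36 (-0.55 ± 0.09, edgeR adjusted p = 3.48e-07) and Jund (-0.30 ± 0.09, edgeR adjusted p = 0.00984), 3 of 10 genes against 8.46%. Without the immature neutrophils none of the 3 was called (Junb -0.16, edgeR adjusted p = 0.37, Zfp36 -0.13, edgeR adjusted p = 0.62 and Jund 0.09, edgeR adjusted p = 0.824). In that immature cluster Junb stood at 770.2 and 878 CPM, and in the other main neonatal neutrophil cluster at 5467 and 6089 CPM. Jund also lost its call without neonatal pool 1 (-0.24, edgeR adjusted p = 0.267) and without adult pool 1 (-0.19, edgeR adjusted p = 0.329).

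NK cells differed for 2 of 10 genes (3.47% of all genes), with a smaller adult excess of Zfp36 (0.78 ± 0.18, edgeR adjusted p = 0.0108) and Junb (0.40 ± 0.11, edgeR adjusted p = 0.0121). Both lost their calls without adult pool 1 (0.41, edgeR adjusted p = 0.5 and 0.26, edgeR adjusted p = 0.28) and without neonatal pool 2 (0.84, edgeR adjusted p = 0.243 and 0.20, edgeR adjusted p = 1), and Zfp36 also without neonatal pool 1 (0.74, edgeR adjusted p = 0.165). Mast cells or basophils stood apart for Junb (-0.40 ± 0.09, edgeR adjusted p = 0.00355) against 1.25% of all genes, a call lost without neonatal pool 1 (-0.34, edgeR adjusted p = 0.179) and without adult pool 1 (-0.25, edgeR adjusted p = 0.485). Atf3, with 0 adult UMIs there, was left out of this comparison in mast cells.

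**Figure D3:**
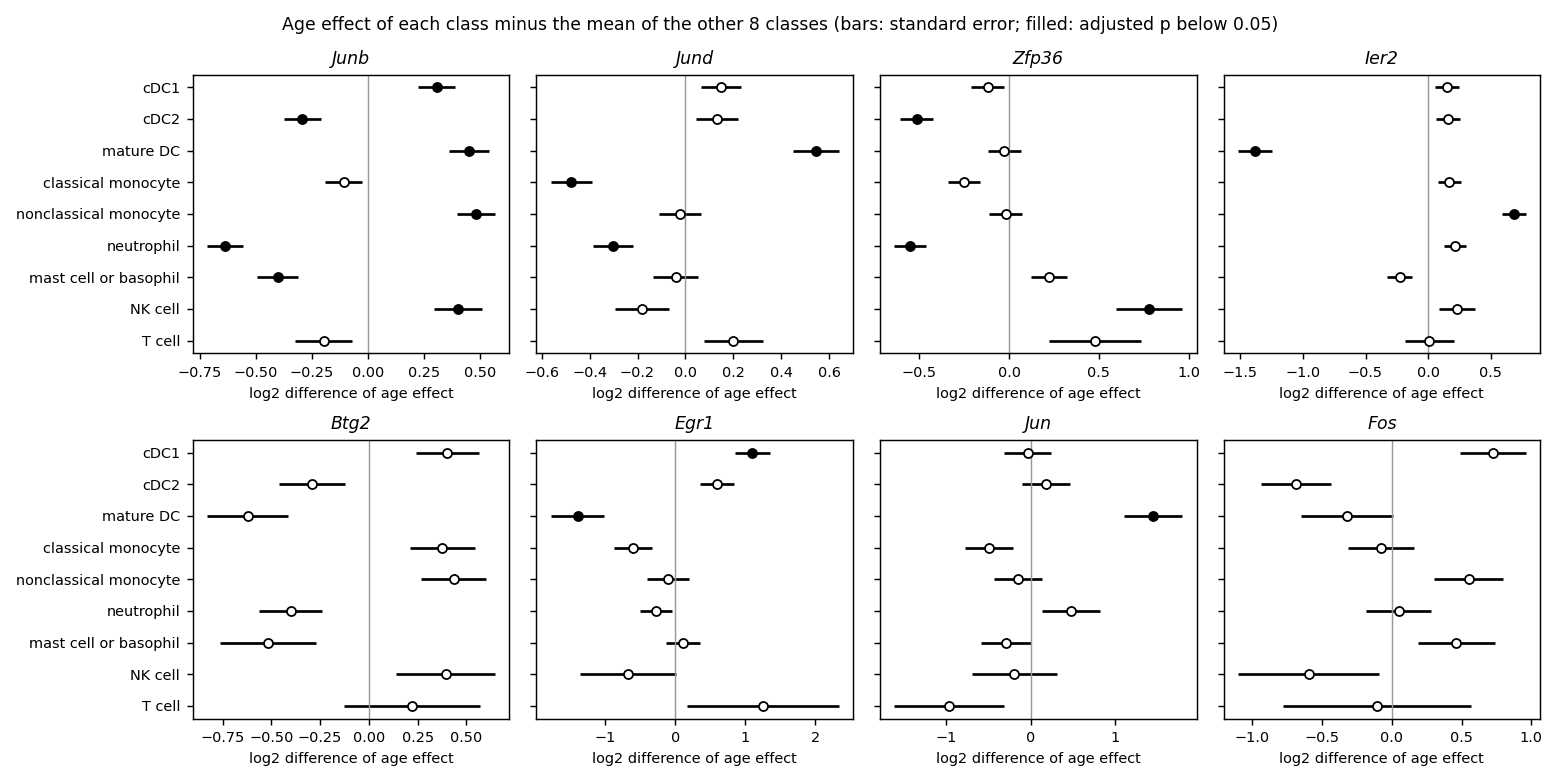
Age effect of each class minus the mean of the other 8 classes on the log2 scale, for 8 of the 10 genes, with bars of 1 standard error and filled points for an adjusted p below 0.05. Points left of the line have a larger adult excess, as Ier2 in mature DC at -1.38, and points right of it a smaller one, as Ier2 in nonclassical monocytes at 0.68.

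Single cells were compared after thinning, because median depth within classes differed too, opposite to the difference over all cells. Both adult pools were deeper in every class but NK cells and T cells, where depths overlapped. In cDC1 the medians were 6650 and 6824 UMIs in neonates and 8042 and 8249 in adults. In mature DC they were 4018 and 4292 against 6252.5 and 6278. With every cell thinned to 1000 UMIs, the median cDC2 held 6 and 5 UMIs of the 10 genes together in neonatal pools 1 and 2 and 10.5 and 9 in adult pools 1 and 2. Neutrophil medians were 20 and 21 against 38 and 35, and classical monocyte medians 6 and 6 against 10 and 11. Mast cells or basophils, at 21 and 16.5 against 32 and 35, and neutrophils held the most. Mature DC and T cells, both at 2 and 2 against 3 and 3, were among the lowest. At least 5 of the 10 genes were detected in 44.8% and 38.7% of neonatal and in 71.1% and 68.7% of adult cDC2. In mature DC 13.2% and 15% of neonatal and 8.65% and 7.14% of adult cells had none of them. In each of the 9 classes both adult medians were above both neonatal medians.

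**Figure D4:**
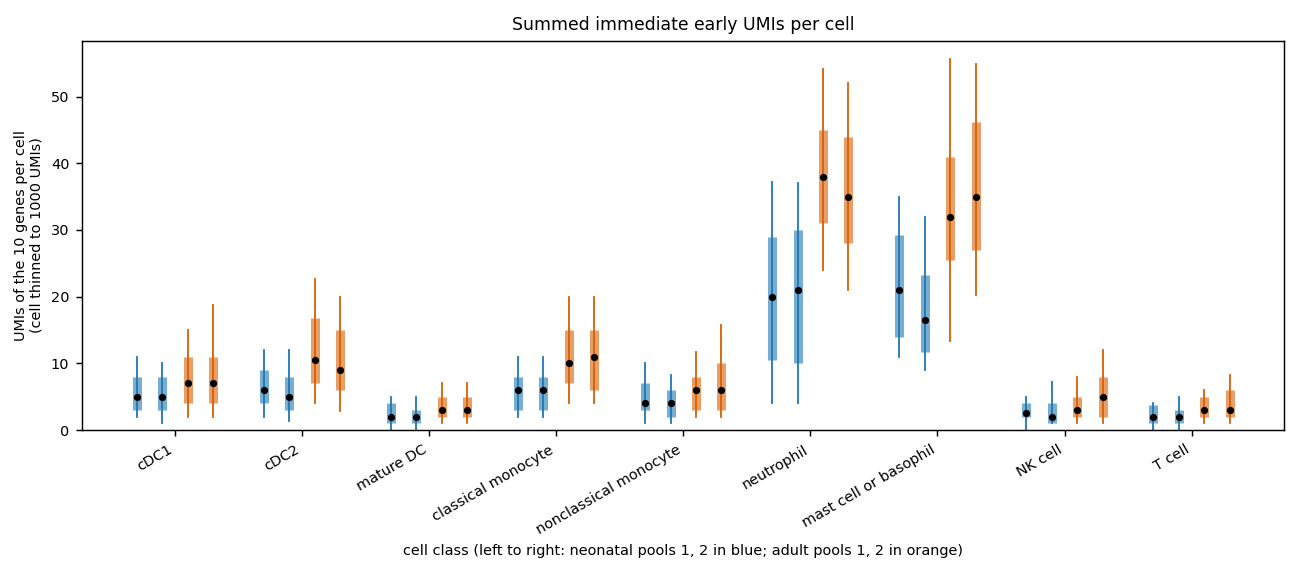
UMIs of the 10 genes summed per cell after thinning each cell to 1000 UMIs, for 4 pools in 9 classes. Black points are medians, thick bars the middle quartiles and thin lines the 10th to 90th percentiles. Adult medians lie above neonatal ones, as 38 and 35 against 20 and 21 in neutrophils.

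Pools of 1 age also differed from each other. Fosb was higher in neonatal pool 1 than in pool 2 in 9 of 9 classes (median log2 difference 0.21) and higher in adult pool 2 than in pool 1 in 9 of 9 (0.20). Jun was higher in neonatal pool 1 in 8 of 9 classes (0.34), whereas Junb was in 4 of 9 (-0.01). In NK cells adult pool 2 held 669 CPM of Jun and adult pool 1 270.0 CPM.

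Since sex and age go together between the pools, cells of both sexes were set side by side within neonatal pool 2. Over the tested classes 270 cells carried Y-linked UMIs without Xist and 2602 carried Xist without Y-linked UMIs. Their ratio, Y-linked over Xist cells, was 1.75 for Fosb, 1.44 for Egr1, 1.36 for Fos, 1.26 for Atf3, 1.19 for Junb and 1.16 for Btg2. The 95% intervals of these lay above 1, and those of Jun (1.08), Jund (1.05), Ier2 (1.04) and Zfp36 (0.973) covered 1. The mix of classes also enters these sums. In cDC1, with 85 and 502 such cells, the ratio of Y-linked over Xist cells was 0.917 (0.832 to 1.0) for Btg2, 1.11 (0.989 to 1.24) for Junb and 1.17 (0.998 to 1.37) for Ier2, with 95% intervals that cover counting error only. For Fos it was 1.48 (1.38 to 1.59), for Fosb 1.46 (1.31 to 1.63), for Jun 1.31 (1.14 to 1.51), for Egr1 1.31 (1.14 to 1.51) and for Zfp36 1.17 (1.02 to 1.34). Other classes gave other ratios. Ier2 stood at 2.36 (1.31 to 4.02) in mature DC, where 17 UMIs came from Y-linked cells, and Junb at 1.41 (1.22 to 1.62) and Jun at 0.403 (0.277 to 0.567) in nonclassical monocytes. In neutrophils Fosb stood at 2.01 (1.37 to 2.9) and Egr1 at 0.63 (0.43 to 0.897). This is 1 pool, so no test was made, and the part of sex in the age differences was not tested. Neutrophil RNA free in the droplets was bounded from the neutrophil transcripts S100a8, S100a9 and Retnlg. Its largest shares were in classes with few UMIs of the gene, such as 16.7% of Egr1 in T cells of adult pool 2. By this bound, neutrophil RNA came to at most 0.433% of any of the 10 levels in cDC1 and cDC2. Free RNA of other classes was not bounded.

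Related genes were followed in the equally weighted mean, where 496 of all 10642 genes were higher in adult and 724 higher in neonatal (median log2 0.07). Of the other immediate early genes, 8 of 27 genes were higher in adult and 1 higher in neonatal (median log2 -0.25), and without neonatal pool 2 the first count was 4. They included Ier5 (-0.86 ± 0.04, limma adjusted p = 2.06e-06), Ppp1r15a (-0.68 ± 0.06, limma adjusted p = 0.000151), which restarts translation after stress, Dusp1 (-0.53 ± 0.07, limma adjusted p = 0.000845), the phosphatase that switches MAP kinases off, and Klf2 (-0.55 ± 0.08, limma adjusted p = 0.00161). Among other zipper proteins and AP-1 partners 3 of 21 genes were higher in adult and 2 higher in neonatal (median log2 -0.22). Here Cebpd (-0.72 ± 0.17, limma adjusted p = 0.0253) stood against Maf (1.13 ± 0.21, limma adjusted p = 0.00888) and Batf3 (0.81 ± 0.17, limma adjusted p = 0.0137). By class, Batf3 was called higher in neonatal neutrophils (1.67), nonclassical monocytes (0.78) and cDC1 (0.23). It was called higher in adult classical monocytes (-0.44) and was not called in cDC2 and mature DC. Without neonatal pool 2 both counts of that list were 0, and without neonatal pool 1 the first was 0.

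For mRNA deadenylation and decay partners, 3 of 22 genes were higher in adult and 2 higher in neonatal (median log2 0.13). Btg1 (-0.58 ± 0.04, limma adjusted p = 9.87e-06) and Zfp36l2 (-0.44 ± 0.05, limma adjusted p = 0.000338), the close relatives of Btg2 and Zfp36, moved with them, as did Tob2 (-0.41 ± 0.11, limma adjusted p = 0.043), while Zfp36l1 (0.22 ± 0.05, limma adjusted p = 0.0222) went the other way. Without neonatal pool 1 or 2, 0 genes of that list were higher in neonatal. Among the MAP kinases and the transcription factors they drive, 0 of 26 genes were higher in adult and 1 higher in neonatal (median log2 0.12). That gene was Mrtfa (0.65 ± 0.11, limma adjusted p = 0.00461), a coactivator of serum response factor, and Rps6ka1, Map2k2 and Map2k1 followed without a call (0.26, 0.20 and 0.23). In the list of MAP kinase feedback inhibitors 1 of 7 genes were higher in adult and 1 higher in neonatal (median log2 -0.19), namely Dusp5 (-0.36 ± 0.09, limma adjusted p = 0.0303) and Dusp16 (0.79 ± 0.17, limma adjusted p = 0.0164). Without neonatal pool 1 or 2 both counts were 0. Spry2 and Spred1 were not called (-0.68 and -0.40). Heat shock genes, often raised together with early genes by tissue handling, were mixed in this mean: 2 of 16 genes were higher in adult and 1 higher in neonatal (median log2 -0.11). Hsp90ab1 (-0.20 ± 0.04, limma adjusted p = 0.0105) was higher in adult, Hspa8 (0.34 ± 0.05, limma adjusted p = 0.00365) higher in neonatal and Hspa5 not called (-0.16). By class, classical monocytes had 7 of 16 higher in adult and 0 higher in neonatal (10.8% and 6.8% of all genes, median log2 -0.43). Neutrophils had 5 of 12 and 1 (15.8% and 16.3%, -0.41), and nonclassical monocytes 5 of 16 and 1 (9.6% and 9.52%, -0.20). Mature DC had 1 of 15 and 5 (14.6% and 13.4%, 0.28) and cDC2 2 of 15 and 4 (8.02% and 5.3%, 0.15). The part of tissue handling was not tested. Single classes could go against the mean with a call. Examples were Klf2 in mast cells or basophils (1.19), Dusp5 in mature DC (0.40) and Hspa8 in classical monocytes (-0.54).

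By class, the 10 genes and the other immediate early genes are set side by side. In mature DC the 10 genes had a median log2 fold change of -0.90 and the other immediate early genes one of 0.13, with 3 of 22 higher in adult (14.6% of all genes) and 5 higher in neonatal (13.4% of all genes). In neutrophils these medians were -0.94 and -0.64 (16 of 25 higher in adult and 2 higher in neonatal, beside 15.8% and 16.3% of all genes), and in classical monocytes -0.96 and -0.56 (14 of 22 and 0, beside 10.8% and 6.8%). cDC1 had 10 of 25 higher in adult (11.2% of all genes) and 1 higher in neonatal (8.22%), and cDC2 10 of 26 (8.02%) and 1 (5.3%).

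**Figure D5:**
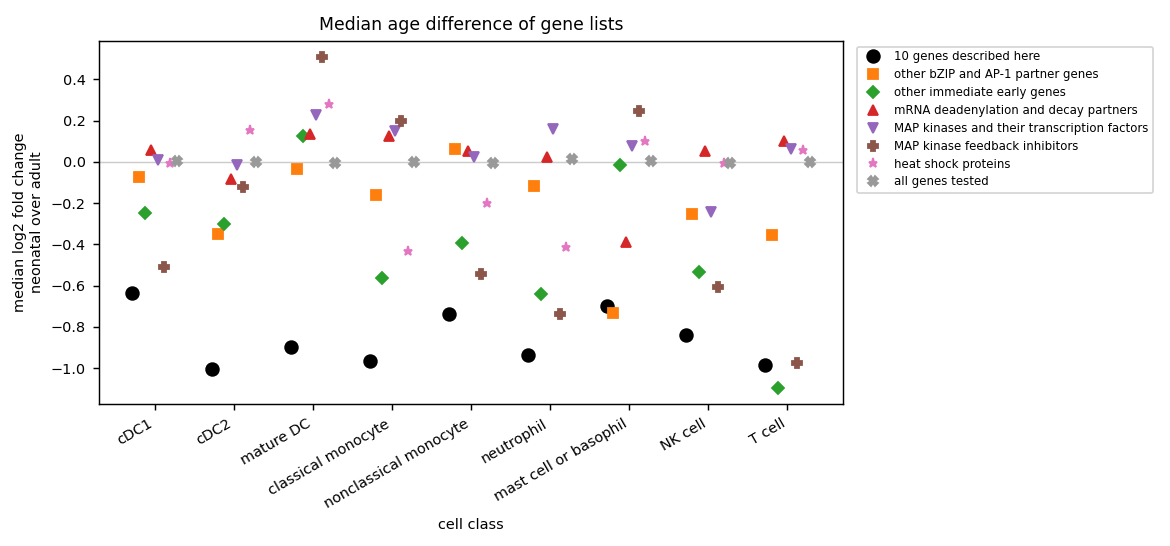
Median log2 fold change, neonatal over adult, of the 10 genes (black), 6 companion lists (colours) and all genes tested (grey) in each of 9 classes. The black points lie between -1.01 and -0.64 and the grey points near 0, while the green diamonds of the other immediate early genes run from -1.09 in T cells to 0.13 in mature DC.

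Over the 36 sums of class and pool, the genes whose log2 CPM ran most like the mean profile of the 10 were Smim3 (Pearson r = 0.912), Nlrp3 (Pearson r = 0.902), Ccr1 (Pearson r = 0.865), Zyx (Pearson r = 0.861), Il1rap (Pearson r = 0.853), Rgs2 (Pearson r = 0.844), Taldo1 (Pearson r = 0.841) and Hcar2 (0.84). Nlrp3 is the sensor of an inflammasome, Ccr1 a chemokine receptor, Il1rap the accessory chain of the interleukin-1 receptor and Rgs2 a regulator of G protein signalling. The correlations describe 36 sums that share pools and classes.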

How the data were processed

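Lung cells of 2 ages were measured by droplet single-cell RNA sequencing in 1 matrix of raw UMI counts, which the authors deposited after Cell Ranger 6.1.2 and Seurat 4.2.0 with build mm10, per the submitters' processing notes. Which step used which tool beyond the count matrix, and the treatment of ambient RNA, are not given in the sources used here. Pools were taken from the barcode suffixes and checked against the hashtag UMIs, and 0 columns were left unused.

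Cells with at least 500 genes, at least 1000 UMIs, at most 10% mitochondrial UMIs and at most 20% of the other hashtag were kept, and predicted doublets (Scrublet within scanpy 1.11.5, per age) were removed: 101, 87, 21 and 14 in the pools. Cells were clustered (2794 variable genes without the 10 genes and their companion lists, 30 components, 15 neighbours, Leiden resolution 1) and named from marker lists. A cycling score threshold of 2.5 was set after the clusters were seen, and clusters that met no marker rule (46, 43, 113 and 100 cells) stayed unnamed.

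UMIs were summed per pool and class and tested with edgeR 4.0.16 (filterByExpr, TMM, quasi-likelihood) within each class and in 1 model with pool as a block for differences between classes. Class means of log2 CPM (prior count 2) were tested with limma 3.58.1. The edgeR and limma p-values are Benjamini-Hochberg adjusted over all genes tested, with a threshold of 0.05, and the exact permutation p-values are not adjusted. Standard errors of edgeR fits come from the F statistic and those of limma from its moderated variance. DESeq2 1.42.0 was an alternative, beside other normalization, count filters, cell filters, thinning to 1000 UMIs, clustering and leaving out each pool. On simulated counts of cDC1 (9582 genes), 72.9% of genes changed by 2-fold and 30.6% of those changed by 1.5-fold were called. For genes changed in cDC1 only, the contrast of cDC1 with the mean of the other classes called 38.3% and 6.52%. The simulation gave all genes 1 dispersion.

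The 10 genes and the companion lists were chosen with earlier results of these data known. All 10 genes are described in every class. Of each list the 4 genes with the smallest p in the mean over classes are named, and the 8 best correlated genes outside the lists. Of the genes this rule names, 2 are not reported here.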

Additional observations from a re-analysis of the deposited data

Results flagged for a closer look

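For 7 of the 10 genes the age difference was not the same size in the 9 cell classes, by the test of the class and age interaction in edgeR with Benjamini-Hochberg adjustment. The adjusted p was 2.42e-19 for Ier2, 1.33e-18 for Junb, 1.85e-10 for Zfp36, 5.65e-10 for Jund, 1.19e-06 for Atf3, 0.000498 for Egr1 and 0.0106 for Btg2. Of all genes, 30.7% passed the same test.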

How the results depend on the processing

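With 2 pools per age, each result rests on 4 pools, and sex and loading run go with age. Of the counts of genes higher in adult and of genes with an interaction, 118 values under other settings stayed within 1.5 times the reported count. The exceptions were 5 in mast cells or basophils after thinning to 1000 UMIs, and 2 in T cells both after thinning and with the DESeq2 Wald test. Leaving out 1 pool gave 4 to 7 genes in NK cells, with 7 without adult pool 1, and 3 to 6 in T cells, 7 to 9 in cDC1, 6 to 9 in mast cells or basophils and 7 to 10 in the mean over classes.

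Single values changed sign in these cases, and the cause was not tested. Egr1 in cDC1 was -0.32 when clustered with the genes themselves, -0.31 at resolution 2 and -0.59 in shared clusters, and Egr1 in cDC2 was 0.086 at resolution 2. Fosb was 0.35 in mature DC and 0.012 in neutrophils after thinning, and 0.28 in neutrophils without the immature cluster. Jun in mature DC was -0.55 in shared clusters. Zfp36 in NK cells was -0.036 with no count filter and -0.13 with doublets kept, and in T cells 0.11 with doublets kept. Set against the other classes, Junb in cDC1 was -0.0096 in shared clusters and Jund in neutrophils 0.092 without the immature cluster. Leaving out 1 pool gave -1.20 to 0.012 for Fosb in NK cells, -0.27 to 0.46 for Zfp36 in NK cells and -0.55 to 0.055 for Zfp36 in T cells.

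The alternatives with shared clusters, without immature neutrophils and over DC classes only were chosen after seeing the data. The pools of both ages share only a number. With the replicate number as a block, 7 of 10 genes were called in the mean over classes.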
